A study of Homo sapiens with 18 samples.

Results

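Wild-type MDA-MB-231 cells collected 48 h after transfection with an siRNA against PARP1 were compared with untreated wild-type cells, 3 libraries in each group. The genes described are those with an FPKM of at least 1 in at least 3 of these 6 libraries, which were 14538 of the 62830 genes listed. FPKM is the number of fragments assigned to a gene, divided by the gene's length and by the size of the library. Of the 14538 genes, 13576 had an Ensembl identifier, 11210 of them were protein coding in GENCODE 29, and 962 were assembled loci with no name.

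MDA-MB-231 is a widely used human breast cancer cell line of the triple-negative class, with mesenchymal features. The study measured polyadenylated RNA in 18 libraries that form 6 groups of 3. The groups were wild type for TRIM27 or carried a TRIM27 knockout, and within each genotype the cells were untreated, received 2 µM olaparib for 24 h, or received the PARP1 siRNA (given in the labels as 100 pM, 48 h, transfected with a lipid reagent). The subject named by the series is how TRIM27, PARP1 and PAX6 act together in invasion and metastasis. The labels do not say whether the knockout line is a single clone. No library analysed here is labelled as having received a non-targeting siRNA or the transfection reagent alone, so loss of PARP1 mRNA, transfection and entry of a short double-stranded RNA cannot be told apart in this comparison. Whether the 3 libraries within a group are from independent cultures is not stated in the labels, so the p-values reflect only how far these libraries scatter, and that scatter may be technical.

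PARP1 is an abundant nuclear enzyme that binds DNA strand breaks and builds chains of ADP-ribose from NAD+ on itself, on histones and on repair proteins, which recruits factors such as XRCC1. HPF1 directs its activity to serine residues, and PARG and ADPRS remove the modification. PARP1 also acts on chromatin at promoters and as a cofactor of transcription factors, NF-kB among them. An siRNA lowers the PARP1 mRNA and with it the amount of protein, whereas olaparib occupies the catalytic site and holds the protein on DNA.

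The 6 libraries separated by treatment and differed in depth. Summed FPKM was 860649 ± 6661 in untreated and 874407 ± 33083 in siPARP1 libraries (mean ± SD, n = 3). The steps between low values put the depth of the siPARP1 libraries at 0.749 to 0.813 times that of untreated library 1, and the depth of the other 2 untreated libraries at 0.827 and 1.04 times. Every siPARP1 library was thus shallower than every untreated one, and the part of depth in the results was not tested. Correlations of log2(FPKM + 1) across the 14538 genes were 0.983 to 0.986 within a group and 0.950 to 0.953 between the groups, and genes are not independent replicates. Unnamed loci held 49.3 ± 0.41% of the summed FPKM in untreated and 45.4 ± 1.62% in siPARP1 cells. The protein-coding genes of the mitochondrial genome held 17.6 ± 1.27% and 20.9 ± 0.37% of the FPKM of named genes. FPKM values are shares of a library, so such shifts move all other values. Of genes chosen as high in this line, VIM, CD44, FN1, MSN and AXL summed to 3456 to 3698 FPKM in untreated and 3119 to 3353 FPKM in siPARP1 libraries. Of ESR1, PGR, ERBB2, CDH1 and EPCAM, chosen as low, only ERBB2 had a mean of 1 FPKM or more. Its means were 17.7 FPKM untreated and 23.2 FPKM with siPARP1. The epithelial keratin genes KRT8, KRT18 and KRT19, described below, were also abundant. Leukocyte markers (13 genes, PTPRC among them) summed to 0.826 to 0.898 FPKM in untreated and 0.473 to 0.895 FPKM in siPARP1 libraries. Of 13 endothelial, adipocyte and neural markers, 2 had a mean of 1 FPKM or more, and the 13 summed to 56.0 to 58.9 and 33.1 to 54.2 FPKM. The 2 were the neural markers TUBB3 and SYP. TUBB3 held nearly all of the sum, at 55.9, 56.7 and 54.0 FPKM untreated and 51.6, 30.8 and 48.9 FPKM with siPARP1. SYP had means of 1.93 and 2.26 FPKM. PECAM1 was listed at 0 in all 3 untreated libraries and at 0.01 FPKM in siPARP1 library 1.

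The siRNA target fell in every library. PARP1 (ENSG00000143799, chr1:226360691-226408079, GRCh38) stood at 59.1, 54.5 and 54.9 FPKM in the untreated libraries and at 9.94, 10.6 and 11.7 FPKM in the siPARP1 libraries. All 3 siPARP1 libraries lay far below all 3 untreated ones, and the siPARP1 mean was 19.1% of the untreated mean. The change in log2(FPKM + 1) was -2.29 ± 0.07 (SE), with an adjusted p of 3.36e-12 (limma, Benjamini-Hochberg over 14538 genes, as in every adjusted p that follows). Sums of PARP1 transcript values gave a smaller change, -1.39 ± 0.47 (adjusted p = 0.022). TRIM27, the ubiquitin ligase gene that the knockout targets, was at 1.18, 1.51 and 1.65 FPKM in untreated and 1.78, 1.62 and 2.44 FPKM in siPARP1 wild-type cells, so the groups overlapped (log2 change 0.26 ± 0.10, adjusted p = 0.03). That call was lost after either rescaling described below and without untreated library 1 (0.18) or siPARP1 library 3 (0.15). In the knockout libraries without treatment TRIM27 was at 0.665, 0.547 and 0.658 FPKM. These are below every wild-type value but not 0, and whether the remaining reads come from the edited transcript cannot be told from a value per gene. PAX6, a developmental transcription factor gene, was below 1 FPKM in all 6 libraries, at 0.400, 0.501 and 0.331 FPKM untreated and 0.296, 0.609 and 0.373 FPKM with siPARP1. It did not pass the filter on low values, and in a fit without the filter its log2 change was 0.01 ± 0.12.

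The other enzymes of the PARP family changed much less than the target. Of 16 tested members 6 were higher and 5 lower with siPARP1, beside 30.9% higher and 23.1% lower over all genes, and nothing about the family is read from shares so near the background. The members had a median log2 change of 0.09 that became -0.02 when values were rescaled to TPM, which gives the named genes the same sum in every library. Over all genes the median was 0.08. PARP2, the closest relative of PARP1 in break repair, was at 20.8, 24.2 and 20.4 FPKM untreated and 17.4, 19.3 and 18.6 FPKM with siPARP1, without overlap (log2 change -0.23 ± 0.07, adjusted p = 0.00988), and did not pass without untreated library 2, at -0.15. PARP3, another break-activated member, was at 15.2 ± 0.674 and 17.6 ± 2.25 FPKM and did not pass the threshold (log2 change 0.19 ± 0.10, adjusted p = 0.132), although it passed without siPARP1 library 1, at 0.28. Of the tankyrases, which modify telomere and Wnt pathway proteins, TNKS2 rose from 17.96 ± 0.520 to 25.8 ± 0.674 FPKM and TNKS fell from 5.12 ± 0.228 to 3.39 ± 0.437 FPKM. PARP6 rose from 12.2 ± 0.213 to 18.5 ± 1.16 FPKM and PARP8 from 5.26 ± 0.748 to 7.25 ± 0.838 FPKM. These are means ± SD over 3 libraries, as in all pairs of means below.

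Of 9 tested genes listed for ADP-ribose removal or as PARP1 cofactors, 2 were higher and 4 lower. Over all genes 30.9% were higher and 23.1% lower. Among the hydrolases PARG rose from 7.95 ± 0.507 to 10.7 ± 0.903 FPKM and ADPRS from 12.3 ± 0.708 to 16.5 ± 0.270 FPKM, and MACROD1, which removes mono-ADP-ribose, fell from 5.17 ± 0.404 to 3.57 ± 0.406 FPKM. HPF1, the PARP1 cofactor, fell from 23.8 ± 1.64 to 18.4 ± 1.12 FPKM. H2AZ2, a histone variant gene placed on this list, fell from 65.8 ± 1.67 to 34.97 ± 0.881 FPKM. In NAD metabolism 3 of 12 tested genes were higher and 3 lower (median 0.10, -0.01 after rescaling to TPM and 0.16 without untreated library 1). Nothing about NAD metabolism is read from counts so near the shares over all genes. NAMPT, the rate-limiting enzyme of NAD salvage, was at 22.8, 17.4 and 18.4 FPKM untreated and 27.1, 24.8 and 20.4 FPKM with siPARP1 and did not pass the threshold, although it passed without untreated library 1 or siPARP1 library 3, at 0.40. The NAD-dependent deacetylase gene SIRT1 fell from 10.6 ± 1.02 to 8.22 ± 0.454 FPKM, SIRT6 rose from 8.05 ± 0.394 to 12.3 ± 0.164 FPKM, and QPRT, which makes NAD precursors from tryptophan, fell from 14.8 ± 2.45 to 9.16 ± 0.663 FPKM, a call lost with transcript sums (-0.25).

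More than 1 gene in 2 changed beyond the spread between libraries, mostly by little. At an adjusted p under 0.05, 7852 of the 14538 genes were called (54.0%), 4489 higher (30.9%) and 3363 lower (23.1%). In 8839 genes (60.8%) the 3 libraries of one group lay wholly outside the range of the other. Changes of at least 2-fold on the log2(FPKM + 1) scale, on which folds of weakly expressed genes come out too small, were found in 440 genes that rose (3.03%) and 389 that fell (2.68%). The split between higher and lower depends on the scaling. Of the calls 57.2% were higher with FPKM as deposited, 48.0% after median-of-ratios scaling over the genes tested and 43.1% after rescaling to TPM. The median over all genes was 0.08, 0.00 and -0.04 on the log2 scale under these scalings. Directions of small changes are therefore read against these medians. Counts in the lists below are likewise read against 30.9% higher and 23.1% lower over all genes. Nothing about a list is read from counts near these shares. The medians of the 36 lists with a tested member shifted by -0.085 to -0.044 with median-of-ratios scaling and by -0.158 to -0.035 with TPM. Among named genes with small changes, TPM gave -0.36 for PARP2 and VIM, -0.33 for IL6, 0.22 for CDKN1B, 0.21 for XPO5 and 0.12 for CCN1. It also moved the fall of MMP2 to -1.34. A gene that reached the filter only through the group in which it is high had to differ, and 637 genes passed only through siPARP1 and 535 only through untreated libraries. Among genes named below this holds for PDE7B-AS1, AADAC, AADACP1, SNORD36A and MMP1, which are high with siPARP1, and for HNRNPA1L2, SCARNA22, DENND2A, CD24 and MMP2, which are high in untreated cells. Their changes are descriptions, given without p-values. Such genes also count in some lists below. Their number is given where a list held more than 1 that passed through the same group alone. Called genes made up 45.8% of the 1957 genes with a mean under 2 FPKM and 58.7% of the 3288 genes between 20 and 100 FPKM. Among gene types, small nucleolar RNA genes stood out by their count, with 40 of 81 higher and 2 lower (median 0.60). They are short, and many sit inside introns of host genes, so an FPKM from a library of polyadenylated RNA need not measure the mature RNA.

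**Figure D1:**
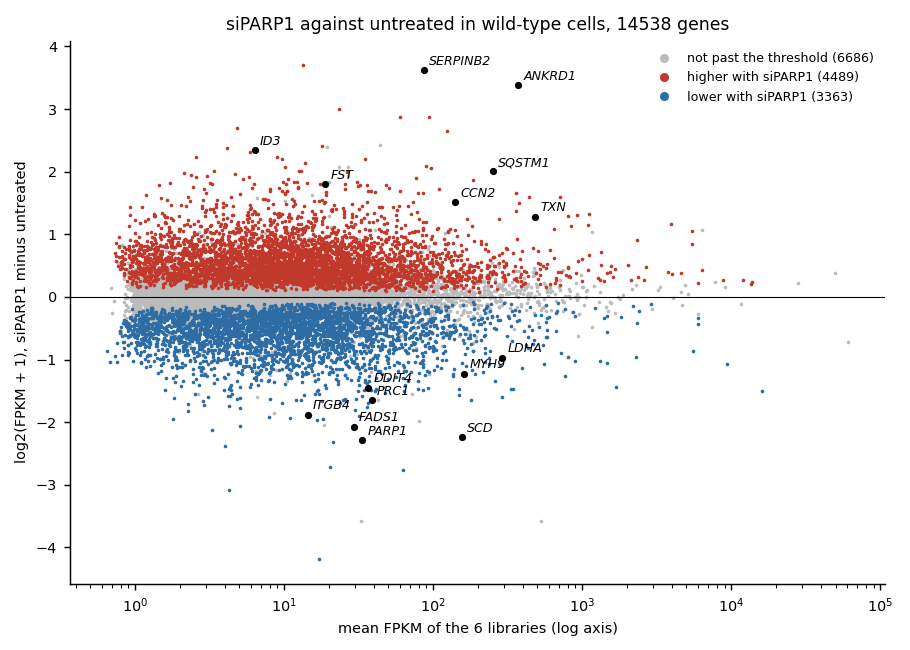
Change in log2(FPKM + 1) between siPARP1 and untreated wild-type cells (vertical axis) against the mean FPKM of the 6 libraries (horizontal log axis) for 14538 genes. Red points are the 4489 genes called higher, blue points the 3363 called lower and grey points those not past an adjusted p of 0.05, with 15 genes named in the text marked in black.

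The largest rises were in genes of very different kinds. ANKRD1, a nuclear ankyrin repeat protein and a widely used target gene of YAP and TEAD (chr10:90912096-90921276), was at 63.9, 66.03 and 62.2 FPKM in untreated and 691, 671 and 665 FPKM in siPARP1 libraries. That is a 10.6-fold higher mean with no overlap between the groups (log2 change 3.38 ± 0.03, adjusted p = 2.45e-17). SERPINB2, the gene of plasminogen activator inhibitor 2 (chr18:63871692-63903890), was at 11.7, 11.7 and 11.9 FPKM and 188, 109 and 187 FPKM. The second siPARP1 library was well below the other 2, yet all 3 were above all untreated ones (log2 change 3.62 ± 0.19, adjusted p = 8.85e-10). ID3, ID1 and ID2, inhibitors of basic helix-loop-helix transcription factors, rose together. ID3 was at 1.26, 1.82 and 1.20 FPKM untreated and 11.3, 10.6 and 11.8 FPKM with siPARP1 (log2 change 2.34 ± 0.16, adjusted p = 1.54e-08). ID1 rose from 4.48 ± 0.182 to 23.1 ± 2.49 FPKM and ID2 from 5.197 ± 0.294 to 17.2 ± 0.578 FPKM. AADAC, an arylacetamide deacetylase, rose from 0.556 ± 0.145 to 9.10 ± 0.512 FPKM, and its neighbouring pseudogene AADACP1 rose from 0.681 ± 0.242 to 7.65 ± 0.610 FPKM, though reads of these related sequences may be split between them. C15orf48, a small mitochondrial protein gene, rose from 2.50 ± 0.267 to 15.4 ± 0.485 FPKM.

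Several of the largest rises were in RNAs that such a library captures incompletely. The mitochondrial tRNA genes MT-TV and MT-TF rose from 21.8 ± 0.302 to 167 ± 8.07 FPKM and from 13.6 ± 1.21 to 105 ± 5.47 FPKM. RN7SL1, the RNA of the signal recognition particle, rose from 33.1 ± 4.39 to 145 ± 20.8 FPKM, with copies elsewhere in the genome that make its value uncertain. SNORD36A was at 1.37, 0.0338 and 3.496 FPKM untreated and 9.59, 12.6 and 8.44 FPKM with siPARP1, so the untreated libraries were spread widely. PDE7B-AS1, annotated antisense to PDE7B, was at 1.35, 0.923 and 0.899 and 25.8, 25.7 and 25.1 FPKM (log2 change 3.70). No source used here says whether reads were counted by strand, so the antisense RNA and PDE7B cannot be told apart.

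The 12 largest falls, PARP1 among them, were in genes of different kinds and ran from -4.18 on the log2 scale in HNRNPA1L2 and -3.08 in SCARNA22 to -1.80 in MYLK. SCD, the desaturase that makes monounsaturated fatty acids (chr10:100347124-100364834), was at 259, 257 and 254 FPKM in untreated and 54.3, 53.8 and 52.5 FPKM in siPARP1 libraries. Both groups were tight, and the siPARP1 mean was 20.9% of the untreated one (log2 change -2.24 ± 0.03, adjusted p = 7.69e-16). FADS1, a desaturase of polyunsaturated fatty acids, fell from 47.8 ± 1.74 to 10.6 ± 0.654 FPKM. ITGB4, the beta subunit of the laminin receptor of hemidesmosomes (chr17:75721328-75757818), was at 22.8, 22.9 and 23.9 and 5.51, 5.21 and 5.97 FPKM (log2 change -1.88 ± 0.10, adjusted p = 8.74e-10). MYLK, myosin light chain kinase, was at 46.2, 47.3 and 46.9 and 14.9, 13.3 and 10.3 FPKM, with no overlap (log2 change -1.80 ± 0.12, adjusted p = 1.81e-08), though sums of its transcript values gave -0.28, short of the threshold. AFAP1L2, an adaptor of Src signalling, fell from 8.72 ± 0.642 to 1.34 ± 0.126 FPKM, and DENND2A, a regulator of Rab proteins, fell from 5.97 ± 0.297 to 0.609 ± 0.131 FPKM. TBL1X, a subunit of the NCoR corepressor complex, fell from 17.9 ± 0.891 to 3.95 ± 0.249 FPKM, and the MYC-interacting factor CDCA7L fell from 50.6 ± 4.73 to 12.8 ± 1.15 FPKM. In 3 of the 12 largest falls the value is uncertain. HNRNPA1L2, an expressed copy of HNRNPA1, was at 33.7, 32.6 and 33.6 and 1.16, 0.362 and 1.28 FPKM, SCARNA22 is a short intronic RNA at 8.26, 9.03 and 7.90 and 0.0999, 0.111 and 0.123 FPKM, and UBE2V2 varied among the untreated libraries at 12.6, 36.9 and 32.4 FPKM against 5.70, 6.65 and 4.67 FPKM. The part that reads of copies and of overlapping genes have in these values was not tested.

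**Figure D2:**
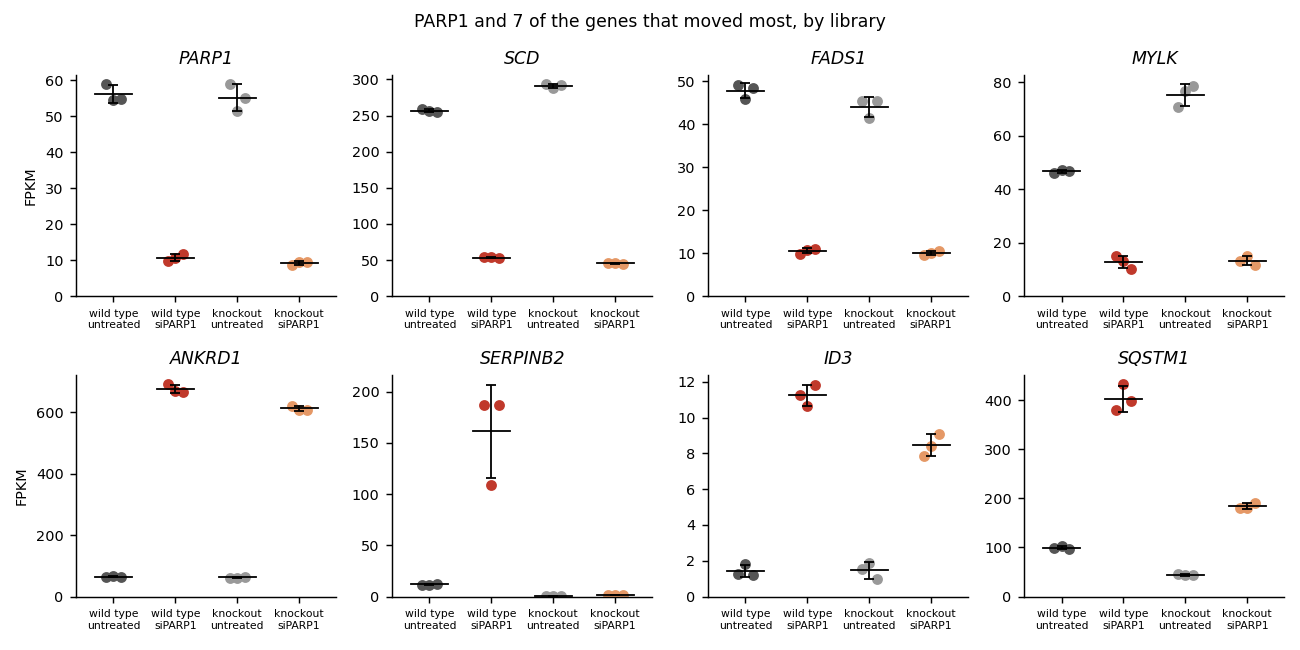
FPKM of 8 genes in each of 3 libraries (points) of 4 groups, untreated and siPARP1 wild-type and knockout cells, with the mean and SD as black lines and a linear vertical axis from 0. PARP1, SCD, FADS1 and MYLK were lower and ANKRD1, ID3 and SQSTM1 higher with siPARP1 in all libraries of both genotypes, while SERPINB2 reached 109 to 188 FPKM in siPARP1 wild-type cells alone among the 4 groups.

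Genes of mitosis fell together, with the lowest median of the 35 lists that had at least 5 tested members. Of 41 tested genes of mitosis and the G2/M transition, 38 were lower, 1 was higher and 2 did not pass the threshold, with a median log2 change of -0.87 against 0.08 over all genes. TOP2A, the topoisomerase that untangles chromosomes, was at 157, 153 and 156 FPKM in untreated and 72.3, 68.9 and 68.4 FPKM in siPARP1 libraries (log2 change -1.14 ± 0.03, adjusted p = 3.3e-12). CDK1, the mitotic kinase, was at 69.7, 70.6 and 69.6 and 31.9, 32.3 and 31.1 FPKM (log2 change -1.12 ± 0.04, adjusted p = 5.07e-11). In both genes the siPARP1 libraries held less than 1 part in 2 of every untreated value. Its partner CCNB1 fell less, from 127 ± 2.48 to 77.8 ± 0.453 FPKM. The proliferation marker MKI67 was at 35.3, 31.3 and 34.4 FPKM untreated and 13.6, 20.97 and 22.7 FPKM with siPARP1, where the first siPARP1 library was lower than the other 2. The largest fall was in PRC1, which bundles microtubules of the central spindle, at 57.4, 58.4 and 60.96 and 19.9, 19.9 and 14.9 FPKM (log2 change -1.65 ± 0.17, adjusted p = 1.27e-06). NUSAP1 and DLGAP5, both spindle proteins, fell from 58.7 ± 5.70 to 23.6 ± 4.66 FPKM and from 52.9 ± 0.875 to 21.6 ± 0.277 FPKM, and the spindle motor KIF11 fell from 36.4 ± 0.846 to 14.9 ± 0.639 FPKM, a call lost with transcript sums (-1.17 ± 0.83). In bulk RNA, fewer cells in a phase of the cycle and less of these RNAs per cell cannot be told apart.

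Replication genes fell with them. None of 42 tested genes of DNA replication and the G1/S transition was higher, 33 were lower and 9 did not pass (median -0.55). GINS4, a subunit of the replicative helicase complex, fell from 18.8 ± 1.10 to 7.61 ± 0.466 FPKM, the primase subunit PRIM1 from 14.7 ± 1.18 to 7.44 ± 0.900 FPKM and the helicase subunit MCM4 from 49.8 ± 12.1 to 26.7 ± 0.691 FPKM, the last a call lost with transcript sums (-0.94 ± 0.51). MCM2, of the same ring, was at 24.1, 21.95 and 23.7 FPKM untreated and 14.8, 16.3 and 15.04 FPKM with siPARP1 (log2 change -0.57 ± 0.07, adjusted p = 3.93e-06). CHAF1B, which loads histones on new DNA, fell from 9.14 ± 0.549 to 4.88 ± 0.542 FPKM. Other members changed little. PCNA, the replication clamp, was at 106, 109.9 and 112 and 104, 106 and 107 FPKM (adjusted p = 0.334) and passed the threshold only after rescaling, with log2 changes of -0.13 and -0.18, and CCNE1, the G1/S cyclin, at 10.2 ± 1.03 and 10.7 ± 0.640 FPKM (adjusted p = 0.36). CCND1, the cyclin that answers growth factors, fell from 139 ± 2.30 to 112 ± 2.58 FPKM.

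The promoters of 3 of these genes show the short motifs known from cell cycle genes. Each sequence runs 5′ to 3′ on the gene's own strand from 250 bases before to 50 bases after the start site in RefSeq (GRCh38.p14). Capitals mark only the motif named for that gene. PRC1 (chr15:90994486-90994785, minus strand) and NUSAP1 (chr15:41332631-41332930, plus strand) hold the cell cycle genes homology region, searched as TTTGAA on both strands. It begins 20 bases before the start site in PRC1 and, at -13 in the same count, after the start site in NUSAP1. POLA1 (chrX:24693668-24693967, plus strand), the catalytic subunit of DNA polymerase alpha, holds an E2F motif, searched as TTTCCCGC or TTTGGCGC on both strands, that begins 137 bases before the start site. The sequence of NUSAP1 also holds TTTGGCGC, left in small letters.
PRC1: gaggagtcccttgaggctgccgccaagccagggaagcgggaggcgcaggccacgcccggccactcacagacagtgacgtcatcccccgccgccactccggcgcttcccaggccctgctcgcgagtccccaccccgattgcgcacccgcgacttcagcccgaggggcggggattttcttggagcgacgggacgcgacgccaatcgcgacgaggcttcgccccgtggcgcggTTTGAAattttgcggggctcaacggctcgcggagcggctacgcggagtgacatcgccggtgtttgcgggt
NUSAP1: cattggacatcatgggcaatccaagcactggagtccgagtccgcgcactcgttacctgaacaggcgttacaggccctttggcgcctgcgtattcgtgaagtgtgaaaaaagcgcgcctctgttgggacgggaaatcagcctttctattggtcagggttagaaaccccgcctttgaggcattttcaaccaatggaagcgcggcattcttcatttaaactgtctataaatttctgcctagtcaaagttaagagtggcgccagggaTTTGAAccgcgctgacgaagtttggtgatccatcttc
POLA1: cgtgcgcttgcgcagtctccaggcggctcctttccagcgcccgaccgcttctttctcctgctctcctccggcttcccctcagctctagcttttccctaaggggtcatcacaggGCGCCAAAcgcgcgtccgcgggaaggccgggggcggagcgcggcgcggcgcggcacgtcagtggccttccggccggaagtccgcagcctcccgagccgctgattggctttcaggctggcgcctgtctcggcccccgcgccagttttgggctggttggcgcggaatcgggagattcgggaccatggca
These genes were chosen for their changes and their motifs after the values were seen. POLA1 was at 16.1, 16.1 and 15.6 FPKM in untreated and 9.26, 8.52 and 8.77 FPKM in siPARP1 libraries (log2 change -0.78 ± 0.08, adjusted p = 2.34e-06). Of the 34 tested G2/M genes with a promoter in the table (of 41), 24 held TTTGAA, which is 70.6% against 15.4% of all 27305 promoters. A CCAAT box (CCAAT, either strand, no letters shared with TTTGAA) stood in 25 of the 34, 73.5% against 35.7% of all promoters. An E2F motif stood in 15 of 34 promoters of the replication list, 44.1% against 2.31% of all. These matches are letters in a window and show neither binding nor a cause.

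Genes of homologous recombination fell, and single-strand break repair was mixed. Of 27 tested genes of homologous recombination and the Fanconi pathway, 19 were lower and 2 higher (median -0.36), and no member remained higher after rescaling to TPM. FANCD2 fell from 10.2 ± 1.16 to 4.19 ± 0.286 FPKM, BARD1, the partner of BRCA1, from 8.57 ± 0.461 to 4.14 ± 0.170 FPKM, the nuclease EXO1 from 15.4 ± 0.833 to 7.95 ± 0.518 FPKM and the helicase BRIP1 from 6.94 ± 1.36 to 3.52 ± 0.504 FPKM, which was -0.17 and not past the threshold with transcript sums. BRCA2, a mediator of recombination, fell from 3.12 ± 0.244 to 1.64 ± 0.139 FPKM. BRCA1 itself was at 21.7, 10.7 and 14.2 FPKM untreated and 10.6, 15.6 and 10.8 FPKM with siPARP1, with overlapping groups and an adjusted p of 0.36. Among 23 genes of single-strand break and base excision repair, the pathway in which PARP1 acts, 3 were higher, 10 lower and 10 did not pass (median -0.11). XRCC1, the scaffold that PARP1 recruits, was at 15.4 ± 1.46 and 14.6 ± 0.411 FPKM (adjusted p = 0.407, and 0.0277 after rescaling to TPM), and the endonuclease APEX1 at 64.7 ± 3.56 and 75.4 ± 25.9 FPKM (adjusted p = 0.682). The replicative ligase LIG1 fell from 19.7 ± 1.96 to 11.4 ± 0.378 FPKM, and the glycosylases NEIL3 and UNG fell from 9.76 ± 0.682 to 3.27 ± 0.273 FPKM and from 26.1 ± 0.592 to 14.5 ± 6.35 FPKM, the latter with the first siPARP1 library lowest at 7.23 FPKM. Without that library the change of UNG was -0.50, and the call of LIG1 was lost with transcript sums (-0.39).

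Target genes of p53 did not move one way. MDA-MB-231 cells carry a mutant p53. Of 29 tested genes 8 were higher and 8 lower (median -0.03), and after rescaling to TPM 7 were higher and 14 lower. Before rescaling the counts are near the 30.9% higher and 23.1% lower over all genes, and nothing about the list is read from them. CDKN1A, the p21 inhibitor, was at 77.9, 84.4 and 76.6 FPKM in untreated and 135, 38.8 and 40.2 FPKM in siPARP1 libraries. One siPARP1 library was above and 2 were below all untreated ones, and the gene did not pass the threshold (log2 change -0.41 ± 0.56, adjusted p = 0.565). MDM2 fell from 70.5 ± 2.41 to 56.1 ± 1.86 FPKM, while TRIAP1 rose from 44.4 ± 1.33 to 80.8 ± 2.69 FPKM, TP53I3 from 15.2 ± 1.57 to 27.9 ± 1.57 FPKM, PLK3 from 7.30 ± 0.189 to 12.4 ± 1.19 FPKM and SESN1 from 4.87 ± 0.782 to 8.38 ± 0.434 FPKM. Among cell cycle inhibitors and genes linked to senescence 2 of 11 tested were higher and 6 lower. CDKN1B, the p27 inhibitor, rose from 21.2 ± 0.515 to 27.1 ± 0.551 FPKM, and GLB1, the lysosomal beta-galactosidase, from 18.5 ± 1.00 to 32.9 ± 0.968 FPKM. The nuclear lamina genes LMNB2 and LMNA fell from 48.01 ± 0.768 to 28.5 ± 0.370 FPKM and from 211 ± 13.7 to 157 ± 22.2 FPKM, where transcript sums lost the call of LMNA (-0.61 ± 0.88). LMNB1 was at 50.5, 74.8 and 78.4 FPKM untreated and 44.7, 40.01 and 56.7 FPKM with siPARP1, groups that overlap and that lost the call if untreated library 2 or 3, or library 2 of siPARP1, was left out (-0.39 to -0.42). CDKN2C fell from 13.6 ± 0.668 to 9.04 ± 0.484 FPKM.

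Several transcripts of replication-dependent histones rose. Only 14 of 52 listed histone genes passed the filter, so the list as a whole is not described by them. Of the 14, 13 were higher and none lower, and 2 had passed only through their siPARP1 libraries. H2AC18 and H2AC19, a near-identical pair whose reads cannot be separated, rose from 3.76 ± 0.406 to 15.97 ± 1.89 FPKM and from 3.72 ± 0.0909 to 14.7 ± 1.37 FPKM. H2BC12 rose from 36.2 ± 0.591 to 71.2 ± 2.13 FPKM, H2BC21 from 1.43 ± 0.305 to 5.50 ± 0.315 FPKM and H2BC4 from 3.52 ± 0.595 to 7.31 ± 0.555 FPKM. Most mRNAs of these genes end in a stem loop in place of a poly(A) tail, so a library enriched for poly(A) captures mainly the tailed minority. Whether the rise is in the amount or in the tailing was not tested.

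**Figure D3:**
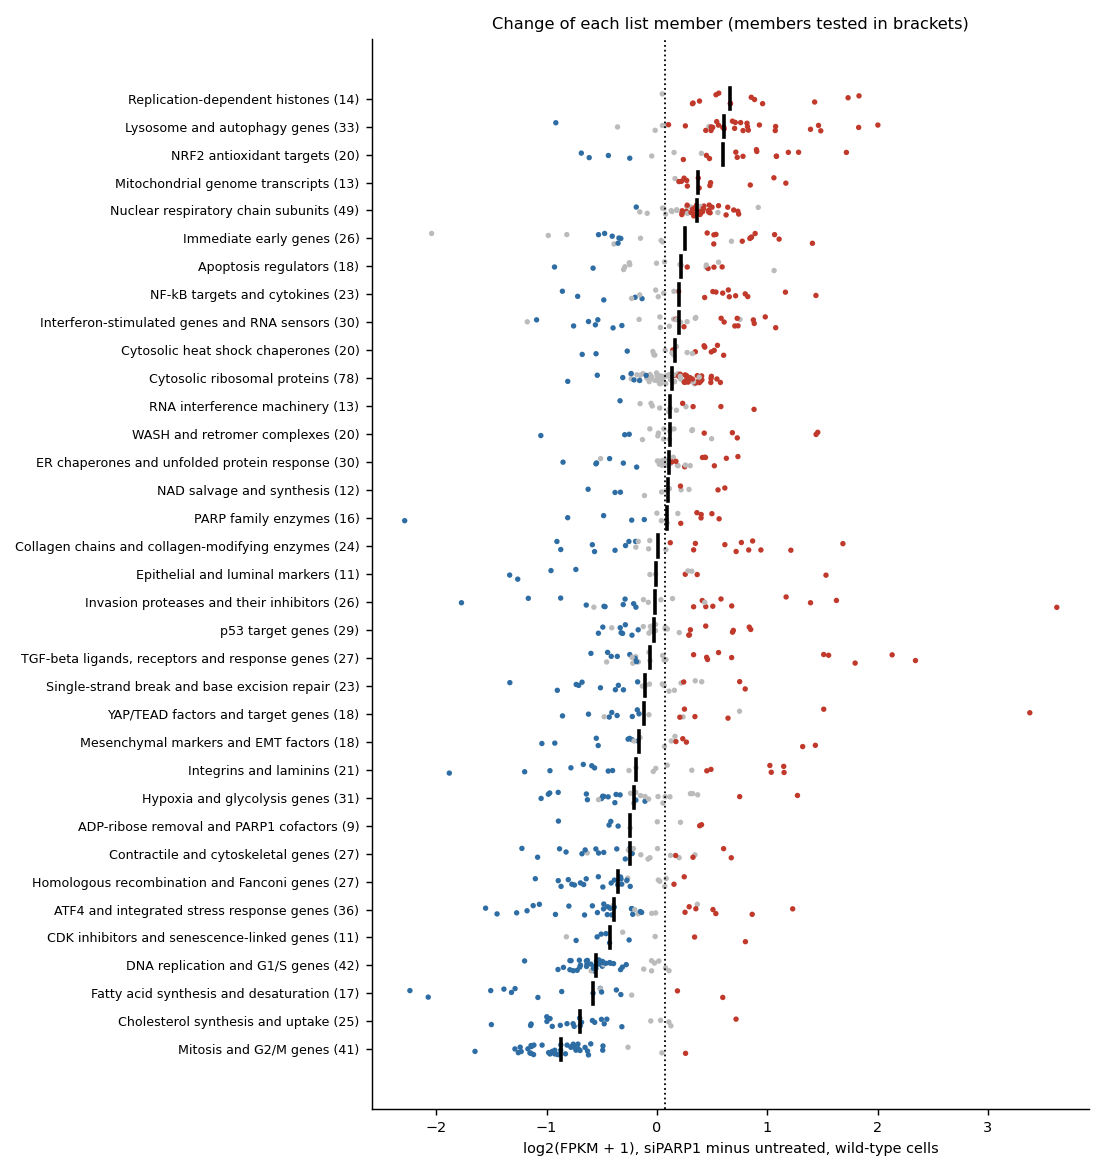
Change in log2(FPKM + 1) between siPARP1 and untreated wild-type cells for each tested member of 35 gene lists, ordered by the list median (black bar), with the dotted line at the median of all genes, 0.08. Red and blue points passed an adjusted p of 0.05 and grey points did not: mitosis, cholesterol and fatty acid genes lie mostly to the left, lysosome and NRF2 genes mostly to the right.

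Lipid synthesis fell along both branches that SREBP factors control. Of 25 tested genes of cholesterol synthesis and uptake, 20 were lower and 1 was higher (median -0.70). HMGCS1, which commits acetyl units to the pathway, was at 42.7, 45.9 and 43.3 FPKM in untreated and 18.98, 20.9 and 18.2 FPKM in siPARP1 libraries (log2 change -1.15 ± 0.07, adjusted p = 3.51e-09). The sterol sensor gene INSIG1 was at 49.3, 51.4 and 82.2 and 19.03, 20.5 and 21.4 FPKM, with untreated library 3 above the others. All siPARP1 values of both genes lay below all untreated ones. FDFT1 and LSS, further down the pathway, fell from 31.9 ± 2.24 to 15.5 ± 2.02 FPKM and from 15.4 ± 1.87 to 7.25 ± 1.15 FPKM. Among 17 genes of fatty acid synthesis and desaturation 13 were lower and 2 higher (median -0.58, and -0.88 without siPARP1 library 1). With SCD and FADS1, described above, FASN, the fatty acid synthase, fell from 94.5 ± 3.15 to 32.6 ± 2.52 FPKM, LPIN1, a phosphatidate phosphatase, from 33.5 ± 0.492 to 12.2 ± 0.436 FPKM, and ACSL3, which activates fatty acids, from 50.5 ± 2.25 to 19.6 ± 0.211 FPKM. With sums of transcript values ACSL3 (-0.06, adjusted p = 0.944) and LPIN1 (-0.50, adjusted p = 0.435) did not pass.

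Genes that answer to ATF4, the factor of the integrated stress response, fell on balance. Of 36 tested, 23 were lower and 7 higher (median -0.39, and -0.23 with transcript sums). ATF4 itself was at 28.6, 32.6 and 29.2 FPKM in untreated and 22.95, 22.2 and 22.6 FPKM in siPARP1 libraries, without overlap but not past the threshold (log2 change -0.40 ± 0.19, adjusted p = 0.0867). It passed after either rescaling, at -0.48 and -0.53. ASNS, asparagine synthetase, was at 87.1, 99.9 and 88.00 and 34.1, 46.8 and 39.8 FPKM (log2 change -1.18 ± 0.21, adjusted p = 0.000283). PHGDH, the first enzyme of serine synthesis, fell from 45.6 ± 4.57 to 18.3 ± 0.854 FPKM, DDIT4, an mTORC1 inhibitor, from 53.7 ± 0.444 to 19.05 ± 0.694 FPKM, and the glutamine carrier SLC1A5 from 86.4 ± 1.81 to 39.9 ± 10.2 FPKM. DDIT3, which encodes CHOP, fell from 34.4 ± 6.64 to 24.6 ± 0.439 FPKM, and TRIB3 was at 13.95 ± 1.29 and 12.2 ± 3.09 FPKM (adjusted p = 0.256, and 0.042 without siPARP1 library 3). GDF15, a secreted stress cytokine on the same list, went the other way, at 32.5, 34.98 and 33.8 FPKM untreated and 74.4, 82.2 and 85.2 FPKM with siPARP1 (log2 change 1.23 ± 0.08, adjusted p = 1.36e-08). Of 32 promoters of this list, 8 held the C/EBP and ATF response element (searched as TGATGCAA or TGATGAAA on both strands), 25% against 2.00% of all promoters.

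Protein folding genes were mixed. In the endoplasmic reticulum 9 of 30 tested genes were higher and 6 lower, with a median of 0.11 that became -0.01 after rescaling to TPM. Over all genes 30.9% were higher and 23.1% lower, so nothing about the list is read from these counts. HSPA5, the chaperone BiP, was at 237, 232 and 229 FPKM untreated and 175, 169 and 174 FPKM with siPARP1 (log2 change -0.43 ± 0.03, adjusted p = 9.01e-08), and PDIA4 fell from 114 ± 1.44 to 77.6 ± 0.298 FPKM, which transcript sums did not show (-0.09, adjusted p = 0.807). With transcript sums the call of HSPA5 was lost and its value was upward but widely spread (1.40 ± 1.90, adjusted p = 0.571). The translocon subunit SEC61B fell from 56.6 ± 3.19 to 30.95 ± 2.93 FPKM, whereas SYVN1 and DERL2, of the degradation machinery, rose from 8.48 ± 0.102 to 14.8 ± 0.413 FPKM and from 17.6 ± 0.842 to 27.9 ± 3.16 FPKM. XBP1 was at 51.02, 41.6 and 28.3 and 25.9, 28.04 and 27.6 FPKM, where the untreated libraries differed widely (adjusted p = 0.105, and 0.0302 without untreated library 3). Of 20 cytosolic chaperone genes 8 were higher and 3 lower (7 and 5 after rescaling to TPM). DNAJA1 rose from 64.7 ± 0.595 to 98.9 ± 1.49 FPKM and AHSA1, a cofactor of HSP90, from 69.5 ± 2.98 to 102 ± 2.04 FPKM. HSPA1A, which shares reads with its near-identical neighbour, rose from 2.75 ± 0.149 to 3.77 ± 0.125 FPKM, and HSPA4L and DNAJB4 fell from 7.46 ± 0.639 to 4.29 ± 0.429 FPKM and from 234 ± 4.69 to 159.7 ± 20.1 FPKM.

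Genes of the lysosome mostly rose. Of 33 tested genes of the lysosome and autophagy, 27 were higher, 1 was lower and 5 did not pass (median 0.61). SQSTM1, the autophagy receptor p62, was at 99.7, 103 and 96.5 FPKM in untreated and 379, 432 and 397 FPKM in siPARP1 libraries, 4.04-fold higher in the mean (log2 change 2.00 ± 0.06, adjusted p = 1.91e-12). MCOLN1, the calcium channel of the lysosomal membrane, was at 5.69, 6.30 and 5.19 and 16.1, 17.8 and 19.6 FPKM (log2 change 1.48 ± 0.09, adjusted p = 3.98e-09). Neither gene showed overlap between the groups. CTSL, a lysosomal protease, rose from 31.2 ± 2.97 to 83.3 ± 5.13 FPKM. CTSA, another protease of the compartment, was at 36.8, 39.5 and 42.2 and 75.3, 60.8 and 76.2 FPKM (log2 change 0.82 ± 0.14, adjusted p = 0.000156). LAMP1, the membrane glycoprotein, was at 65.5, 103 and 98.3 and 193, 128 and 132 FPKM, with the first library of each group apart from the other 2, and lost its call without either of these (0.55 and 0.57). The call of LAMP1 was also lost after rescaling to TPM (0.63, adjusted p = 0.0565) and in a fit without the filter on low values. GABARAPL1, of the autophagosome, was at 7.90, 8.39 and 26.04 and 31.3, 62.7 and 48.2 FPKM and lost its call if untreated library 1 or 2, or library 2 of siPARP1, was left out (1.55 to 1.60).

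Promoters of MCOLN1 and CTSA show the motif that MiT/TFE factors such as TFEB are known to bind in lysosomal genes, written here as GTCACGTG and searched on both strands, a motif added after the values were seen. The sequences, again from RefSeq on GRCh38.p14, cover chr19:7522374-7522673 (plus strand) and chr20:45891085-45891384 (plus strand), with the matches in capitals. MCOLN1 has 3 matches, 2 of which overlap on opposite strands in a single stretch of capitals, and CTSA has 2 matches.
MCOLN1: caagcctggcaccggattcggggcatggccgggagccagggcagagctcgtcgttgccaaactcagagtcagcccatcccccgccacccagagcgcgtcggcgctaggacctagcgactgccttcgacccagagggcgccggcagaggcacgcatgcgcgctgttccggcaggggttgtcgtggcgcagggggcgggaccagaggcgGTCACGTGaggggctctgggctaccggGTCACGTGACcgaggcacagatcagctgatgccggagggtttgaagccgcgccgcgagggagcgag
CTSA: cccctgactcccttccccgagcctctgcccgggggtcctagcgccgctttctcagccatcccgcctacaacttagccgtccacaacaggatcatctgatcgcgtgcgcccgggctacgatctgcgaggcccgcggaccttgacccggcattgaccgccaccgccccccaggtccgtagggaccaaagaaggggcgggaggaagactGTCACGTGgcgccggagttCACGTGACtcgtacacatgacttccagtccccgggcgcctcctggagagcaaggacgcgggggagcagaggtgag
Only 24 of the 33 tested lysosome genes had a promoter in the table, under 80%, so a share of promoters over this list is void and is not given.

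NRF2 target genes rose in part. Of 20 tested, 13 were higher and 4 lower (median 0.60). TXN, thioredoxin, was at 282, 281 and 275 FPKM in untreated and 658, 693 and 697 FPKM in siPARP1 libraries (log2 change 1.28 ± 0.06, adjusted p = 3.65e-10). HMOX1, haem oxygenase 1, was at 21.01, 23.3 and 22.6 and 50.2, 52.3 and 54.02 FPKM (log2 change 1.19 ± 0.05, adjusted p = 2.12e-10). The groups of both genes were wide apart. OSGIN1 rose from 3.19 ± 0.322 to 12.8 ± 1.26 FPKM, GCLC, the enzyme that limits glutathione synthesis, from 8.19 ± 0.798 to 18.5 ± 2.64 FPKM, SRXN1 from 27.3 ± 0.439 to 58.98 ± 0.416 FPKM and the quinone reductase NQO1 from 2.22 ± 0.377 to 4.34 ± 0.776 FPKM.

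Transcripts of the respiratory chain rose from both genomes. Of 13 protein-coding genes of the mitochondrial genome 12 were higher and none lower (median 0.37), and 7 of them after rescaling to TPM, a scaling to which these abundant RNAs contribute. MT-ND1, of complex I, was at 2476, 2330.2 and 2492 FPKM untreated and 5376, 5475 and 5547 FPKM with siPARP1 (log2 change 1.17 ± 0.05, adjusted p = 8.54e-11). MT-ND2 rose from 3551 ± 233 to 7392 ± 142 FPKM, MT-ND3 from 3885 ± 301 to 6970.3 ± 182 FPKM and MT-ATP6 from 1291 ± 81.5 to 1810.0 ± 146 FPKM. MT-CO1, the most abundant of those named, was at 12573 ± 557 and 14896 ± 281 FPKM, a small change that lost its call after that rescaling (log2 change 0.25 ± 0.06, adjusted p = 0.00218). Of 49 nuclear genes of respiratory chain subunits 33 were higher and 1 was lower (median 0.36). NDUFA9 rose from 17.8 ± 1.04 to 30.4 ± 0.971 FPKM, NDUFA2 from 45.8 ± 2.86 to 71.99 ± 3.22 FPKM, UQCRQ from 44.5 ± 0.882 to 72.6 ± 2.38 FPKM and SDHC from 45.2 ± 12.2 to 75.2 ± 16.7 FPKM. Cytosolic ribosomal protein genes were higher in 27 and lower in 7 of 78 (median 0.14), which became 13 and 11 after rescaling to TPM. RPL7 fell from 552 ± 10.3 to 315 ± 5.27 FPKM and RPL12 from 789.8 ± 24.8 to 543 ± 21.7 FPKM, RPS19 rose from 248 ± 17.1 to 369 ± 95.3 FPKM (0.34 on the log2 scale without siPARP1 library 1), and RPS23 was at 758 ± 128 and 1119 ± 18.2 FPKM, a call lost after either rescaling and without each library but untreated library 3 (0.48 to 0.58). These genes have many pseudogene copies that can take part of their reads.

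Genes of glycolysis and hypoxia went the opposite way. Of 31 tested 15 were lower and 2 higher (median -0.21). LDHA, lactate dehydrogenase A, was at 398, 395 and 361 FPKM in untreated and 188, 192 and 206 FPKM in siPARP1 libraries, about 1 part in 2 (log2 change -0.97 ± 0.05, adjusted p = 1.76e-09). BNIP3 and BNIP3L, receptors of mitochondrial autophagy, fell from 67.2 ± 1.86 to 31.9 ± 0.0253 FPKM and from 65.9 ± 2.57 to 32.8 ± 0.393 FPKM, and PDK1, which holds pyruvate back from mitochondria, from 7.08 ± 1.05 to 3.35 ± 0.651 FPKM. VEGFA and NDRG1 were at 9.90 ± 1.01 and 5.58 ± 0.291 FPKM untreated and 6.76 ± 2.15 and 4.70 ± 0.562 FPKM with siPARP1 and did not pass the threshold, but both passed as lower after median-of-ratios scaling (-0.60 and -0.28) and after rescaling to TPM (-0.69 and -0.35). An exception was the glucose carrier SLC2A3, which rose from 10.4 ± 0.921 to 26.5 ± 0.944 FPKM. A hypoxia response element (ACGTGC, both strands) stood in 7 of 27 promoters of the list, 25.9% against 6.87% of all.

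Inflammatory genes were split by gene. Among NF-kB targets and cytokines 12 of 23 tested were higher and 5 lower (median 0.20). Of the 23, 1 had passed the filter only through siPARP1 and 2 only through untreated libraries. CXCL8, the neutrophil chemokine, was at 23.1, 22.9 and 22.97 FPKM in untreated and 67.8, 61.8 and 62.9 FPKM in siPARP1 libraries (log2 change 1.44 ± 0.07, adjusted p = 5.12e-10). ICAM1, a leukocyte adhesion receptor, was at 7.29, 7.09 and 7.21 and 16.2, 18.2 and 17.8 FPKM (log2 change 1.16 ± 0.07, adjusted p = 5.8e-09). Both were higher in every siPARP1 library. NFKB2 rose from 22.7 ± 2.06 to 40.9 ± 3.04 FPKM and the inhibitor gene NFKBIE from 3.64 ± 0.151 to 7.12 ± 1.09 FPKM. CXCL1 changed little, from 43.4 ± 1.42 to 49.8 ± 0.554 FPKM, a call lost after rescaling to TPM. The feedback inhibitors NFKBIA and TNFAIP3 were at 6.30 ± 0.102 and 10.04 ± 1.23 FPKM untreated and 6.24 ± 0.463 and 8.89 ± 0.855 FPKM with siPARP1 and did not pass. IL6 was at 14.9, 16.5 and 16.1 and 12.4, 14.8 and 13.9 FPKM (adjusted p = 0.0241), a call that did not pass if untreated library 2 or 3, or library 1 of siPARP1, was left out (-0.13 to -0.19). TNFAIP2 fell from 14.2 ± 1.30 to 8.33 ± 1.79 FPKM.

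Interferon-stimulated genes and RNA sensors are of interest because double-stranded RNA can induce them. They were higher in 11, lower in 7 and not past the threshold in 12 of 30 tested members of 44 listed (median 0.20), and 4 of the tested members had passed the filter only through siPARP1 libraries. ISG15 was at 6.45, 5.82 and 6.06 FPKM untreated and 13.7, 13.7 and 14.6 FPKM with siPARP1 (log2 change 1.08 ± 0.09, adjusted p = 1.42e-07). RIGI, a sensor of viral RNA, was at 3.94, 4.43 and 2.03 and 7.21, 7.40 and 8.08 FPKM, a call lost with transcript sums (1.03 ± 0.54), and IFI44 rose from 2.88 ± 0.199 to 5.48 ± 0.617 FPKM. MX1 stayed low, at 0.574, 0.434 and 0.338 and 1.10, 1.32 and 0.983 FPKM. IFIT1 was at 5.79, 6.39 and 6.02 and 6.81, 6.59 and 6.50 FPKM (adjusted p = 0.0777, and 0.0435 without untreated library 2). EIF2AK2, the kinase that double-stranded RNA activates, fell from 19.1 ± 0.0826 to 10.97 ± 1.46 FPKM, a call lost with transcript sums (-1.11 ± 0.62), and the transcription factor gene IRF1 fell from 10.1 ± 0.610 to 4.24 ± 0.652 FPKM. In the machinery of RNA interference 4 of 13 tested genes were higher and 1 was lower (median 0.12, -0.01 after rescaling to TPM and 0.20 without untreated library 2). Over all genes 30.9% were higher and 23.1% lower, and nothing about this list or the interferon list is read from their counts. AGO2, which carries the siRNA, rose from 8.32 ± 0.705 to 12.9 ± 0.194 FPKM, TARBP2 from 8.97 ± 0.524 to 17.3 ± 0.990 FPKM and XPO5 from 27.8 ± 0.784 to 35.2 ± 0.481 FPKM. PRKRA at 21.5 ± 1.30 and 16.9 ± 0.106 FPKM was lower, a call that did not pass if untreated library 3, or library 1 or 2 of siPARP1, was left out (-0.29 to -0.34). DICER1 was at 9.20 ± 1.14 and 10.9 ± 0.782 FPKM, a call lost after either rescaling and without 4 of the libraries (0.16 to 0.22).

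Immediate early genes and feedback regulators of ERK signalling were higher in 12 and lower in 6 of 26 tested. Of the 26, 1 had passed the filter only through siPARP1 and 2 only through untreated libraries. DUSP6, a phosphatase of ERK, was at 15.4, 18.4 and 16.9 FPKM in untreated and 43.7, 49.9 and 45.99 FPKM in siPARP1 libraries (log2 change 1.41 ± 0.07, adjusted p = 3.47e-10). DUSP5 and SPRY4, also feedback inhibitors, rose from 6.26 ± 0.188 to 14.2 ± 0.237 FPKM and from 7.29 ± 0.510 to 16.9 ± 0.955 FPKM. FOS, EGR1 and JUNB rose from 3.93 ± 0.171 to 8.18 ± 1.20 FPKM, from 5.97 ± 0.390 to 11.6 ± 0.385 FPKM and from 5.71 ± 0.262 to 11.2 ± 1.12 FPKM, and JUN fell from 64.4 ± 0.892 to 46.1 ± 1.15 FPKM.

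Ligands, receptors and response genes of the TGF-beta family moved in both directions. Of 27 tested genes 10 were higher and 7 lower (median -0.06, a sign that changed without untreated library 1 or siPARP1 library 2, at 0.02 and 0.03). These counts are near the 30.9% higher and 23.1% lower over all genes, so nothing about the family is read from them. TGFB1, the ligand, was at 22.3, 19.1 and 20.95 FPKM in untreated and 15.9, 14.7 and 15.4 FPKM in siPARP1 libraries (log2 change -0.41 ± 0.07, adjusted p = 9.27e-05), and its receptor TGFBR2 rose from 28.6 ± 2.10 to 39.6 ± 3.00 FPKM, a call lost with transcript sums (0.73 ± 0.41). FST, follistatin, which binds activins, rose from 7.83 ± 0.590 to 29.7 ± 2.60 FPKM. The ID genes described above are on the same list. The CAGA box (CAGACA, both strands) stood in 2 of 25 promoters, 8.0% against 16.8% of all. Among factors and targets of YAP and TEAD 6 of 18 were higher and 8 lower (median -0.12, and 0.02 without siPARP1 library 1), although widely used targets rose. CCN2 was at 72.3, 72.2 and 72.8 and 207, 208 and 211 FPKM, a nearly 3-fold step with tight groups (log2 change 1.51 ± 0.03, adjusted p = 1.49e-13). CCN1 rose from 335 ± 6.56 to 398 ± 6.53 FPKM, though its value turned to -0.72 on the log2 scale with transcript sums, and F3, tissue factor, rose from 80.6 ± 2.78 to 127 ± 1.17 FPKM. AXL, a receptor kinase, fell from 129 ± 0.915 to 70.8 ± 0.562 FPKM and AJUBA from 45.7 ± 1.84 to 29.4 ± 1.28 FPKM.

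Markers of the mesenchymal and epithelial states did not move as blocks. Of 18 tested mesenchymal markers and EMT factors 5 were higher and 8 lower (median -0.16, -0.30 after rescaling to TPM and -0.09 without untreated library 1). Over all genes 30.9% were higher and 23.1% lower, and 2 of the 18 had passed the filter only through untreated libraries. VIM, vimentin, was at 2655, 2709.5 and 2432 FPKM untreated and 2271, 2245 and 2144 FPKM with siPARP1 (log2 change -0.23 ± 0.05, adjusted p = 0.00172), and FN1, fibronectin, at 356, 363 and 369 and 405, 394 and 428 FPKM, a call lost after either rescaling and without untreated library 1 (0.16) or siPARP1 library 3 (0.14). TAGLN, a smooth muscle actin-binding protein, and POSTN, periostin, rose from 1.64 ± 0.174 to 6.13 ± 0.477 FPKM and from 3.04 ± 0.509 to 9.04 ± 0.739 FPKM. THY1 and ZEB2 fell from 15.7 ± 0.616 to 10.4 ± 0.499 FPKM and from 15.6 ± 1.32 to 10.5 ± 0.918 FPKM. The EMT factors SNAI2 and ZEB1 were at 9.91 ± 1.06 and 8.09 ± 3.07 FPKM untreated and 10.4 ± 0.297 and 6.76 ± 2.24 FPKM with siPARP1 and did not pass. Of 27 epithelial and luminal markers 11 were tested, with 3 higher and 4 lower (median -0.01, and 0.01 to 0.05 without 1 of 3 libraries). CDH1, E-cadherin, was below 0.1 FPKM in all 6 libraries. The keratins of simple epithelia fell: KRT8 was at 1222, 1027 and 1013 and 529.8, 423 and 409 FPKM (log2 change -1.26 ± 0.19, adjusted p = 4.6e-05), KRT18 fell from 1058 ± 39.7 to 543 ± 9.10 FPKM and KRT19 from 372 ± 3.06 to 147 ± 5.51 FPKM, genes with many pseudogene copies. CLDN1, a tight junction protein, rose from 7.72 ± 0.353 to 24.2 ± 0.424 FPKM. ERBB2 was at 17.7 ± 1.63 and 23.2 ± 3.26 FPKM, a call lost after either rescaling and without 3 of the libraries (0.26 to 0.34).

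Genes that act on the matrix were also divided. Among invasion proteases and their inhibitors 10 of 26 tested were higher and 10 lower (median -0.02). MMP1, interstitial collagenase, was at 0.0264, 0.0906 and 0.0545 FPKM in untreated and 1.96, 2.88 and 2.02 FPKM in siPARP1 libraries (log2 change 1.63). MMP2 went from 1.36, 1.69 and 1.30 to 0.352, 0.352 and 0.301 FPKM (log2 change -0.87), and MMP9 was at 0.306, 0.0826 and 0.172 and 0.589, 1.12 and 1.08 FPKM. These 3 proteases are near or below 3 FPKM in every library. MMP14, the membrane-bound form, was at 60.99 ± 8.32 and 66.9 ± 2.67 FPKM (adjusted p = 0.218). PLAU, urokinase, rose from 159 ± 1.70 to 212 ± 10.2 FPKM, the inhibitor gene TIMP1 from 131 ± 7.91 to 186 ± 3.07 FPKM and ADAM19 from 28.5 ± 0.678 to 65.6 ± 4.69 FPKM, and MMP24 fell from 8.38 ± 0.461 to 1.74 ± 0.121 FPKM. Of 21 integrin and laminin genes 6 were higher and 9 lower, and 3 of the 21 had passed the filter only through untreated libraries. ITGA6, the alpha partner of ITGB4 in binding laminin, was at 129.5, 131 and 132 and 48.9, 49.4 and 74.00 FPKM (log2 change -1.20 ± 0.14, adjusted p = 4.28e-06), so both subunits of that receptor fell. The laminin chains LAMB3 and LAMA1 rose from 39.6 ± 0.970 to 89.4 ± 5.65 FPKM and from 2.64 ± 0.265 to 7.13 ± 1.42 FPKM. ITGA2 and ITGB1, a collagen receptor pair, were at 17.9 ± 6.88 and 215 ± 11.01 FPKM untreated and 22.2 ± 6.20 and 180.3 ± 5.73 FPKM with siPARP1 and did not pass. ITGB1 passed as lower after median-of-ratios scaling (-0.34), after rescaling to TPM (-0.38), with only the libraries compared (-0.25) and with transcript sums (-0.71). In collagens and their modifying enzymes 11 of 24 were higher and 8 lower, with a median of 0.01 that was negative under both rescalings. COL6A3 and COL12A1 rose from 4.36 ± 0.501 to 16.4 ± 3.22 FPKM and from 10.4 ± 1.83 to 25.2 ± 2.07 FPKM, the collagen chaperone SERPINH1 from 25.6 ± 4.65 to 50.8 ± 13.99 FPKM, and COL5A1 fell from 5.72 ± 0.105 to 2.69 ± 0.408 FPKM. COL1A1 was at 6.41 ± 0.248 and 4.06 ± 0.900 FPKM, a call lost without siPARP1 library 3 (-0.43).

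Contractile and cytoskeletal genes were lower in 13 and higher in 4 of 27 tested (median -0.25). MYH9, the heavy chain of non-muscle myosin IIA, was at 226, 226 and 226 FPKM in untreated and 95.1, 94.5 and 98.8 FPKM in siPARP1 libraries (log2 change -1.22 ± 0.06, adjusted p = 4.15e-10). TPM1, tropomyosin, was at 394, 371 and 387 and 172, 195 and 176 FPKM (log2 change -1.08 ± 0.05, adjusted p = 7.55e-10). With MYLK, whose kinase activates myosin II, 3 genes of the same contractile unit fell to less than 1 part in 2, with the limit given above for MYLK. The actinins ACTN1 (-1.13 with transcript sums) and ACTN4 fell from 165 ± 18.4 to 112 ± 3.65 FPKM and from 68.6 ± 0.946 to 38.7 ± 7.52 FPKM, DIAPH3, an actin nucleator, from 17.1 ± 0.227 to 8.84 ± 0.126 FPKM, and the small GTPase gene RHOB from 16.4 ± 0.215 to 13.2 ± 0.314 FPKM. In the WASH and retromer complexes, which sort cargo from endosomes and which TRIM27 is known to act on, 5 of 20 tested genes were higher and 3 lower (median 0.11, -0.01 after rescaling to TPM). Beside 30.9% higher and 23.1% lower over all genes, nothing about the complexes is read from these counts. WASHC2A and WASHC2C, near-identical copies, rose from 30.8 ± 1.67 to 86.5 ± 6.12 FPKM and from 23.6 ± 1.09 to 65.8 ± 0.934 FPKM. VPS26A was at 26.5 ± 2.92 and 45.2 ± 11.5 FPKM, a call lost without siPARP1 library 1 (0.53). TBC1D5 fell from 15.8 ± 0.111 to 7.10 ± 0.386 FPKM, just short of the threshold with transcript sums (adjusted p = 0.053), and VPS35 and USP7 were at 20.4 ± 0.885 and 31.4 ± 0.555 FPKM untreated and 26.2 ± 6.80 and 30.01 ± 1.01 FPKM with siPARP1 and did not pass. Apoptosis regulators were higher in 4 and lower in 2 of 18 (3 and 5 after rescaling to TPM). Of the 18, 1 had passed the filter only through siPARP1 and 2 only through untreated libraries. The death receptor gene TNFRSF10A rose from 6.11 ± 0.223 to 9.17 ± 0.402 FPKM and BCL2L1, an inhibitor of cell death, was at 24.1 ± 0.911 and 28.00 ± 1.93 FPKM (adjusted p = 0.261, and 0.0412 with only the libraries compared).

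The same siRNA in TRIM27 knockout cells gave a response that shares no library with the one in wild-type cells. There 8178 of the 14538 genes were called (56.3%), 4784 higher (32.9%) and 3394 lower (23.3%). Of the 4489 genes higher in wild-type cells 3600 were also higher in knockout cells, which is 80.2% of the wild-type and 75.3% of the knockout calls. Of the 3363 lower genes 2662 were lower in both, 79.2% and 78.4%. Opposite calls were made for 28 and 26 genes. Of the 440 genes that rose at least 2-fold in wild-type cells 382 were called higher in knockout cells (86.8%), and of the 389 that fell 362 were called lower (93.1%). In knockout cells PARP1 went from 58.9, 51.5 and 55.2 to 8.71, 9.58 and 9.46 FPKM, ANKRD1 from 62.2 ± 0.504 to 613 ± 8.09 FPKM and SCD from 291 ± 3.01 to 45.4 ± 0.359 FPKM. Mitosis genes were lower in 38 of 41, cholesterol genes in 21 of 25, and lysosome genes were higher in 26 of 33. SQSTM1 started lower in knockout cells, at 44.7 ± 1.85 FPKM, and reached 184 ± 6.39 FPKM, so that the change on the log2 scale differed by -0.01 ± 0.08 between genotypes.

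**Figure D4:**
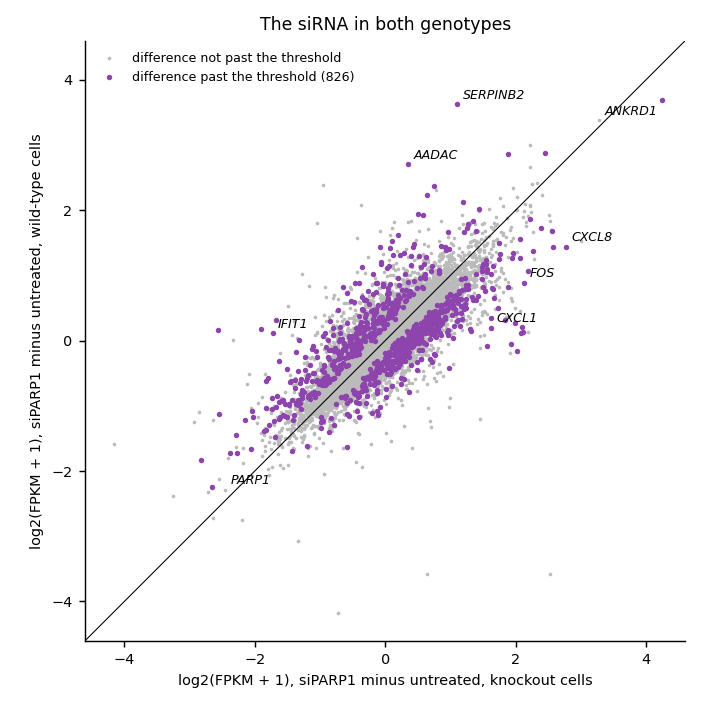
Change in log2(FPKM + 1) after the PARP1 siRNA in wild-type (vertical axis) and knockout cells (horizontal axis) for 14538 genes, with the line of equal change. Purple points are the 826 genes whose change differed between genotypes at an adjusted p under 0.05: SERPINB2 and AADAC lie above the line, CXCL8 and CXCL1 below it. AADAC reached the filter only through siPARP1 wild-type libraries, so its place is a description. The difference of SERPINB2 did not pass with a pseudocount of 0.1.

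The difference between the 2 responses was itself tested and passed for 826 genes (5.68%), 390 with the more positive change in wild-type cells and 436 in knockout cells. SERPINB2 had the largest positive difference among genes named by size. It was at 0.239, 0.117 and 0.0908 FPKM in untreated and 1.14, 1.85 and 1.48 FPKM in siPARP1 knockout cells, a 10.01-fold higher mean beside 13.7-fold in wild-type cells (difference 2.52 ± 0.26, adjusted p = 4.22e-05). With a pseudocount of 0.1 this difference was 1.03 ± 0.43 and did not pass (adjusted p = 0.208), so that it rests on the scale. AADAC reached 0.356, 0.191 and 0.278 FPKM in siPARP1 knockout cells and was listed at 0 in all 3 untreated ones (difference 2.35 ± 0.13, and 1.95 ± 0.30 with a pseudocount of 0.1). IFIT1, with little change in wild-type cells, went from 10.4, 10.3 and 9.75 to 2.29, 2.21 and 2.59 FPKM in knockout cells (difference 1.84 ± 0.07, adjusted p = 5.12e-09). The interferon list as a whole was higher in 3 and lower in 14 of 30 in knockout cells, and 10 of its members passed the test of the difference. On the other side, CXCL8 went from 1.17, 1.25 and 1.64 to 14.7, 14.3 and 15.9 FPKM and CXCL1 from 6.86, 6.66 and 6.99 to 23.7, 23.05 and 22.97 FPKM in knockout cells (differences -1.33 ± 0.10 and -1.43 ± 0.06, adjusted p = 2.08e-06 and 5.12e-09). On the log2 scale both chemokines rose further there than in wild-type cells, though both stayed below their untreated wild-type values. HSPA1A rose 1.63 on the log2 scale in knockout and 0.35 in wild-type cells. RPE, SNHG26, PDP1, SLC33A1 and HSPA8 also passed the difference test by the same rule, but each varied among libraries of 1 group, for example SNHG26 at 12.6, 3.78 and 3.79 FPKM in untreated wild-type cells, and PDP1 at 17.9, 35.3 and 38.4 FPKM.

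Against olaparib in wild-type cells, the siRNA differed in 7687 genes (52.9%), 4406 of them higher (30.3%) and 3281 lower (22.6%) with siPARP1. The filter used only untreated and siPARP1 wild-type libraries, so genes that reached 1 FPKM under olaparib alone were left out. That affects the split: 4456 genes were higher and 3690 lower with a filter over all 18 libraries, and 4659 and 4594 without a filter. Dose and time differ between these treatments, and transfection was part of only 1 of them, so these features cannot be told apart in the difference. Olaparib against untreated called 6694 genes (46.0%), 3528 higher (24.3%) and 3166 lower (21.8%). With the filter over all 18 libraries that comparison called 3932 higher and 3219 lower. It shares its untreated libraries with the siRNA comparison, so the values are only set side by side. PARP1 mRNA was at 36.7, 41.9 and 37.9 FPKM under olaparib, between the untreated and the siPARP1 libraries. Mitosis genes had a median change of -0.87 with siPARP1 and -0.79 with olaparib, and cholesterol genes -0.70 and -0.75. Tested directly, 13 of 41 mitosis genes were higher and 14 lower with siPARP1 than with olaparib.

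Several lists differed in the direct test. H2BC11, a histone gene of the 14 tested, was at 1.77, 1.79 and 1.70 FPKM untreated, 3.18, 3.15 and 2.86 FPKM with siPARP1 and 30.4, 28.1 and 34.1 FPKM with olaparib (log2 change -2.97 ± 0.17, adjusted p = 3.44e-09 between the treatments). Of 29 p53 targets 22 were lower and none higher with siPARP1 than with olaparib, where the medians were -0.03 and 0.76. MDM2 was at 56.1 ± 1.86 FPKM with siPARP1 and 241 ± 2.95 FPKM with olaparib. Replication genes fell further with olaparib: 30 of 42 were higher with siPARP1, and MCM2 was at 15.4 ± 0.791 and 7.90 ± 0.604 FPKM. Also higher with siPARP1 than with olaparib were 25 of 36 genes of the ATF4 list and 20 of 30 of the endoplasmic reticulum list. Medians of the endoplasmic reticulum list against untreated were 0.11 with siPARP1 and -0.28 with olaparib. Among NF-kB targets 14 of 23 were higher with siPARP1, CXCL8 with 64.2 ± 3.21 FPKM against 13.5 ± 0.740 FPKM. FOS was at 3.82, 3.83 and 4.12 FPKM untreated, 9.56, 7.50 and 7.46 FPKM with siPARP1 and 98.9, 104 and 103 FPKM with olaparib, the largest fall by the naming rule in that test (log2 change -3.50 ± 0.08, adjusted p = 4.94e-13). CD24, a surface glycoprotein, was at 0.386 ± 0.265 and 8.93 ± 0.386 FPKM. Of 30 interferon-stimulated genes 20 were higher and 5 lower with siPARP1 than with olaparib, with medians against untreated of 0.20 and -0.37. Homologous recombination genes were higher in 17 and lower in 2 of 27, and cytosolic ribosomal protein genes in 40 and 2 of 78. Immediate early genes were higher in 5 and lower in 13 of 26. At the other end, SERPINB2 was at 7.96, 11.3 and 12.1 FPKM with olaparib, close to untreated cells, and ID3 at 0.945, 1.95 and 1.55 FPKM (log2 change 2.32 ± 0.16, adjusted p = 1.63e-08). Lysosome genes were higher with siPARP1 in 19 and lower in 1 of 33, SQSTM1 with 403 ± 26.97 FPKM against 207 ± 8.37 FPKM.

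**Figure D5:**
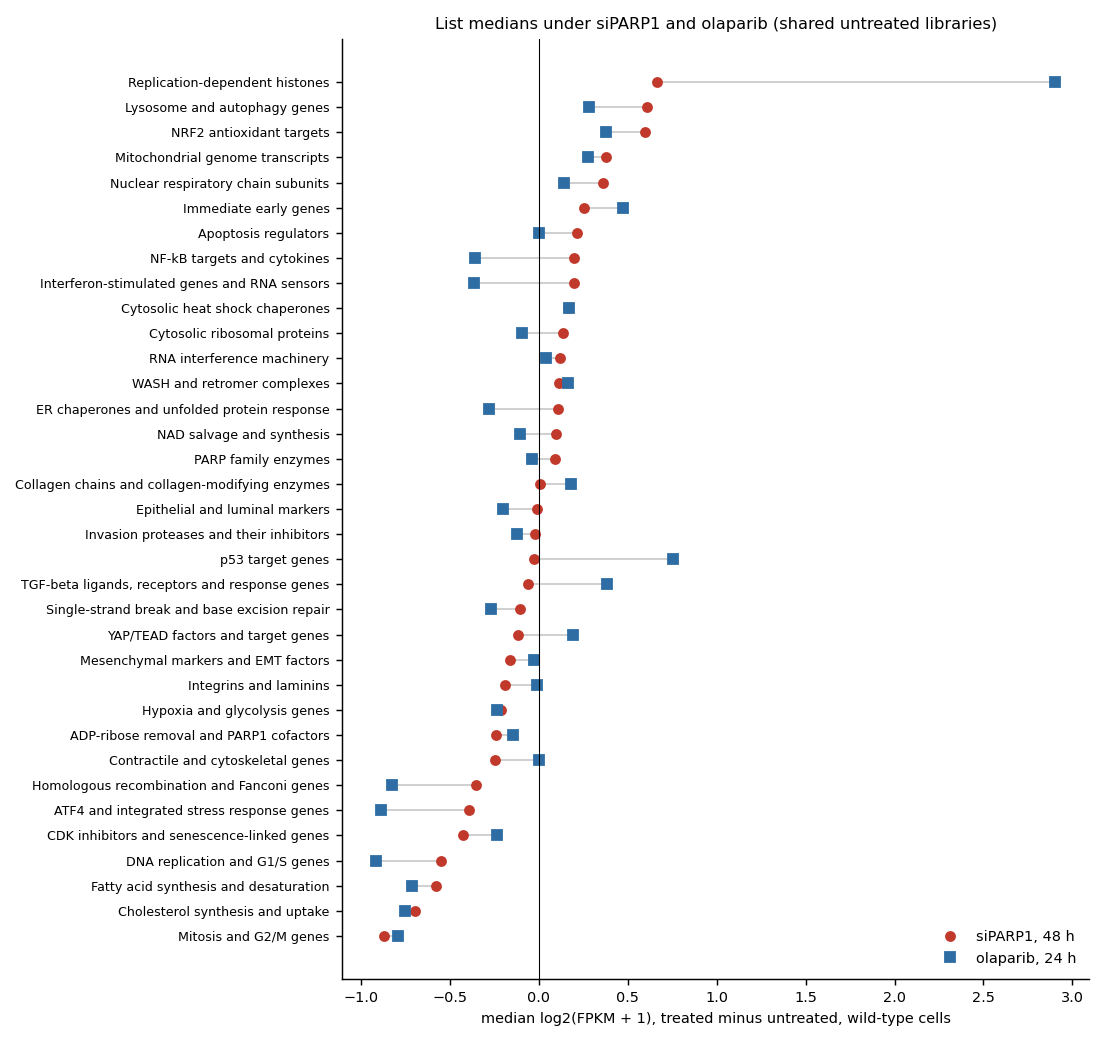
Median change in log2(FPKM + 1) against untreated wild-type cells of 35 gene lists under siPARP1 (red circles, 48 h) and olaparib (blue squares, 24 h), which share the untreated libraries. p53 targets have medians of -0.03 and 0.76 and ATF4 genes -0.39 and -0.89, while mitosis and cholesterol genes lie close together.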

How the data were processed

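RNA-seq of MDA-MB-231 cells was analysed from the authors' deposited FPKM, read from the table by gene. Their table by transcript served only as an alternative. The labels' protocols describe TRIzol extraction and oligo(dT) bead enrichment. Per the submitters' processing notes, the build was GRCh38, and the tools named were HISAT2 2.2.1, StringTie 2.2.1, featureCounts 2.0.3, fastp 0.23.2 and DESeq2 1.38.3. Which of them made the FPKM, and the annotation and strand setting used, are not given in these notes. Without counts the absolute depth is unknown, and relative depth was read from the commonest ratio of low values between libraries.

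Samples were grouped by their labels. Values were transformed as log2(FPKM + 1) and fitted with limma 3.58.1 in R 4.3.3 as 6 group means over all 18 libraries, with a trend in the prior variance (12 residual degrees of freedom, prior 2.03). Genes entered if 3 or more of the 6 libraries reached 1 FPKM, p-values were adjusted by Benjamini-Hochberg over all 14538, and genes were called at an adjusted p under 0.05. The fit was also run on simulated data in which few genes changed and each value was drawn independently, so that run does not bear on the calls made here. The contrasts were siPARP1 against untreated in each genotype, their difference, and siPARP1 against olaparib in wild-type cells.

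The text names PARP1, TRIM27 and PAX6, the 12 largest rises and 12 largest falls among genes with a symbol, groups that did not overlap and a higher mean of 5 FPKM or more, from each of 37 gene lists its key members and up to 4 others with the largest called change, and 5 genes each way for the other contrasts. Of the 247 genes so chosen 13 are not reported here. POLA1 and CTSA were chosen after their values were seen. The members, lists and tests were chosen with earlier results of these data known. Motifs were searched in RefSeq promoters (GRCh38.p14, 300 bases); TFEB's motif was added after the values were seen. Alternatives were another pseudocount (0.1), filters, scalings, variance models, a replicate block, transcript sums and leaving out each library.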

Additional observations from a re-analysis of the deposited data

Results flagged for a closer look

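The change after siPARP1 differed between wild-type and TRIM27 knockout cells, by the test of the difference itself (limma, adjusted p under 0.05), in 64 of the genes named in the report. Values here are the change in log2(FPKM + 1) in wild-type cells minus that in knockout cells.

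Of these, 17 rose in both genotypes and further in wild-type cells: SRXN1 (0.26), DUSP5 (0.36), H2BC12 (0.42), DUSP6 (0.42), MT-TV (0.42), LAMB3 (0.43), CTSL (0.45), H2AC19 (0.48), H2AC18 (0.49), H2BC21 (0.52), TXN (0.66), ID1 (0.94), MT-TF (0.98), C15orf48 (1.58), AADACP1 (1.62), AADAC (2.35) and SERPINB2 (2.52). A further 13 rose in both genotypes and further in knockout cells: CXCL1 (-1.43), CXCL8 (-1.33), HSPA1A (-1.28), FOS (-1.24), TAGLN (-1.14), COL6A3 (-0.88), PDE7B-AS1 (-0.55), ID2 (-0.51), MT-ND2 (-0.51), EGR1 (-0.39), MT-ND1 (-0.38), DNAJA1 (-0.37) and ADAM19 (-0.33). In 13 the fall was deeper in knockout cells: KRT18 (0.34), LDHA (0.36), MCM2 (0.36), MMP2 (0.40), SCD (0.41), HMGCS1 (0.42), AJUBA (0.43), JUN (0.46), LPIN1 (0.47), BNIP3L (0.49), TNFAIP2 (0.67), BNIP3 (0.69) and DDIT4 (0.84). In 4 the fall was deeper in wild-type cells: KRT19 (-0.35), CDKN2C (-0.31), PDIA4 (-0.27) and CCND1 (-0.19). Opposite calls were made for 4: IL6 (-0.94), HSPA5 (-0.59), H2BC4 (1.28) and IFI44 (1.33). The change passed the threshold in wild-type cells and not in knockout cells for 7: RHOB (-0.30), CCN1 (0.22), ADPRS (0.35), F3 (0.60), NQO1 (0.67), POSTN (1.10) and MMP1 (1.44). It passed in knockout cells and not in wild-type cells for 6: PDP1 (-1.89), SLC33A1 (-1.65), HSPA8 (-1.52), IFIT1 (1.84), SNHG26 (1.98) and RPE (2.07).

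These differences are on the log2(FPKM + 1) scale. With a pseudocount of 0.1, 55 of the 64 remained past the threshold in the same direction and 9 did not: PDP1, ADAM19, MMP2, H2AC18, H2BC21, NQO1, POSTN, AADACP1 and SERPINB2. MMP2 turned to -0.26 (adjusted p = 0.377). The mean of AADACP1 was 11.2-fold higher with siPARP1 in wild-type and 49.7-fold in knockout cells, and that of NQO1 1.96-fold and 2.69-fold, so for these the ratios of means order the genotypes the other way.

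PDP1, SLC33A1, HSPA8, RPE and SNHG26 each spread widely within at least 1 group, and the part of this spread in their difference was not tested. AADAC and its neighbouring pseudogene AADACP1, and H2AC18 and H2AC19, are pairs of related sequence and do not count as separate results. PDE7B-AS1, AADAC, AADACP1 and MMP1 reached the filter only through siPARP1 wild-type libraries, and MMP2 only through untreated ones. The filter used wild-type libraries alone, so the wild-type calls and the differences of these genes are descriptions and not support.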

How the results depend on the processing

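The split of calls between higher and lower depended on the scaling, and the count at 2-fold on the pseudocount. A pseudocount of 0.1 raised the genes called at 2-fold to 756 higher and 662 lower, and rescaling to TPM raised the lower ones to 722. The share of calls that were higher went from 58.5% to 49.6% with median-of-ratios scaling and 43.0% with TPM in knockout cells, and from 57.3% to 49.2% and 49.0% against olaparib. Against olaparib it was 54.7% with a filter over all 18 libraries and 50.4% without a filter. Fitting only the libraries compared lowered the difference between genotypes from 826 to 515 genes, 258 higher and 257 lower. Leaving out 1 library at a time gave 7146 to 7346 called genes in wild-type cells and 603 to 710 for the difference between genotypes. Under TPM the medians of the lists turned to -0.021 for the PARP family, -0.012 for NAD salvage, -0.011 for ER chaperones, -0.0058 for RNA interference machinery, -0.012 for WASH and retromer, and -0.12 for collagen, which was -0.0715 with median-of-ratios scaling. Transcript sums turned invasion proteases to 0.16, HSPA5 to 1.40 (adjusted p = 0.571) and CCN1 to -0.72 (adjusted p = 3.77e-06). Without 1 library, list medians ranged from -0.081 to 0.031 for TGF-beta, -0.13 to 0.018 for YAP and TEAD targets, -0.044 to 0.053 for epithelial markers, and -0.18 to 0.027 for endothelial, adipocyte and neural markers. In all, 11 of 36 list medians changed sign somewhere. Of 201 called genes named here, 32 lost the call in at least 1 alternative, 17 of them with transcript sums and 13 when a library was left out, and 14 uncalled ones gained it (ATF4, BCL2L1, HSPA8, IFIT1, ITGB1, NAMPT, NDRG1, PARP3, PCNA, SNHG26, TRIB3, VEGFA, XBP1 and XRCC1). Those lost with transcript sums were MYLK, QPRT, LIG1, BRIP1, MCM4, KIF11, LMNA, RIGI, EIF2AK2, PDIA4, HSPA5, LPIN1, ACSL3, TGFBR2, DICER1, PRKRA and TBC1D5. With only the libraries compared, TRIM27, PARP2, UNG, LMNB1, IL6, SDHC and DICER1 did not pass. The causes were not tested.

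By library number the samples were at most weakly paired. In their deviations from the group means, same-numbered wild-type libraries correlated at 0.08, 0.02 and 0.06, and differently numbered ones at -0.081 to 0.024. Same-numbered knockout libraries correlated at 0.03, -0.04 and 0.01, and differently numbered ones at -0.060 to 0.046. With the number as a replicate block, 7830 genes were called in wild-type cells (4473 higher, 3357 lower), 8113 in knockout cells (4743 and 3370), 748 for the difference between genotypes (363 and 385) and 7596 against olaparib (4361 and 3235), and of the named genes DICER1 lost its call in wild-type cells. Without read counts, what depth limits could not be set as an interval.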
